A study of Mus musculus with 13 samples.

Results

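Wnt proteins are secreted signals, and the genes described here are their ligands, receptors, inhibitors and intracellular transducers, selected by symbol. The rule took every Wnt and Fzd gene, the co-receptors Lrp5, Lrp6, Ror1, Ror2 and Ryk, the secretion genes Porcn and Wls, the inhibitor families Dkk and Sfrp, the ubiquitin ligases Rnf43 and Znrf3, and the genes from Dvl, Axin, Apc and Gsk3 to beta-catenin (Ctnnb1) and its TCF/LEF partners. Of 60 mouse genes that match it in the GENCODE M21 annotation, 57 stand among the 17562 genes of the authors' deposited tables. The other three, Dkk1, Dkk4 and Wnt8a, are not analysed here.

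Cortex RNA of 13 male mice, 18 months old, was sequenced. The groups were 5 wild-type mice (Grn+/+), 4 mice with a single working allele of the progranulin gene (Grn+/-), and 4 mice without mouse Grn that carry a human GRN transgene (Grn-/-; GRNtg). The transgene's promoter and insertion site, the strain and any batch are not stated in the sources used here. The tables hold comparisons, not values per mouse, so the spread is seen only as the standard error (SE) of each log2 fold change. No SE in the tables is above 0.138, and 17, 18 and 19 members in the 3 tables lie within 5% of the highest SE. The SE was also small for nearly absent genes. Between the mutant groups it was 0.034 for Wnt3a, at a mean normalized count of 0.77, and 0.044 for Gsk3a, at 5694. The median SE of 1022 genes within 2-fold of the Wnt3a count was 0.040. Whether fold changes were drawn towards 0 before deposit, as a prior would do, is not stated in the sources. The fold changes, percents and intervals printed here, also those of called and of abundant genes, may therefore understate differences.

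In the canonical branch of the pathway, a Wnt bound to a Frizzled receptor and to Lrp5 or Lrp6 recruits Dishevelled (Dvl). Recruitment stops the destruction complex of Axin, Apc and Gsk3 from marking beta-catenin for degradation, and beta-catenin then acts with TCF/LEF factors on target genes. In the non-canonical branches, Wnt5a and related ligands act through Ror and Ryk receptors on the cytoskeleton. In the brain, Wnt7a and Wnt7b act on endothelial cells to maintain the blood-brain barrier, and other Wnts act at synapses. Progranulin deficiency has been linked in earlier work to altered Wnt signalling, including higher expression of the receptor gene Fzd2, which is the question these genes raise in this series.

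The genotype check came from Grn itself (chromosome 11, 102430315 to 102437048, plus strand, GRCm38). Its log2 fold change was -0.65 ± 0.077 in Grn+/- and -2.02 ± 0.081 in Grn-/-; GRNtg against wild type in the authors' deposited tables, or 63.6% and 24.7% of the wild-type level. Whether reads of the human transgene count towards mouse Grn was not tested. Markers of cortical excitatory neurons were present, with 8 of 8 measured at mean normalized counts from 533 to 79958 across the authors' deposited tables. Of 8 choroid plexus markers 2 were listed, Enpp2 and Aqp1, while Ttr, Kl and Folr1 were not. Between the mutant groups genes are listed down to a mean normalized count of 0.52, and why a gene is absent is not stated. Absence is therefore not evidence of a low level, and the amount of choroid plexus was not tested. Some other markers passed the test in the authors' deposited tables. In Grn+/- against wild type 3 of 8 for astrocytes and 2 of 8 for oligodendrocyte precursors were lower, beside 4.51% of all genes. In Grn-/-; GRNtg against wild type 4 of 11 endothelial and 1 of 8 astrocyte markers were lower, beside 3.05% of all genes. Of the 8 excitatory neuron markers 1 was higher in Grn+/- and 1 lower in Grn-/-; GRNtg, beside 2.29% and 3.05% of all genes. In tissue RNA, fewer cells of a type and less RNA per cell cannot be told apart.

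The transcripts of the pathway differed in level by roles. Levels here are mean normalized counts from the authors' deposited tables divided by exon length, in counts per kilobase of exon, averaged over all 13 cortices. Beta-catenin stood at 1618, above 97.5% of all genes with an exon length, and the kinase gene Gsk3a at 1964. The divergent Dickkopf family member Dkk3 was the highest of the 57, at 2362. The scaffold gene Dvl1 stood at 710 and the tumour suppressor gene Apc, which encodes a component of the destruction complex, at 329. The median over the 8 transducer and destruction complex genes was 205, with Dvl2 lowest at 92.8.

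Ligand and receptor transcripts were lower. The 18 Wnt ligand genes had a median of 14.7 counts per kilobase of exon, led by Wnt7b at 168, Wnt10a at 137, Wnt9a at 123, Wnt4 at 105 and Wnt7a at 74.8. Wnt5a, the main non-canonical ligand, stood at 14.7, and Wnt1, Wnt8b and Wnt3a were at 1.24, 0.412 and 0.28. The 10 Frizzled genes had a median of 34.9, with Fzd3 at 105 and Fzd2 at 81.8 at the top and Fzd5 at 5.53 at the bottom. Among co-receptors Ryk led with 104, followed by Lrp6 at 65.1 and Lrp5 at 38.7, and the Wnt5a receptor gene Ror2 stood at 6.38. Porcn, which encodes the enzyme that lipid-modifies Wnts, was at 468 and Wls, the carrier that takes them to the cell surface, at 63.1. The ubiquitin ligase Znrf3, which removes Frizzled from the membrane, stood at 33.1 and its paralog Rnf43 at 11.8. Tcf7 was the highest of the 4 TCF/LEF genes at 34.9, and the 4 ranged down to Tcf7l2 at 6.57. No value per mouse is at hand, so the order of genes with close levels, such as Wnt4, Fzd3 and Ryk, is not resolved.

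**Figure D1:**
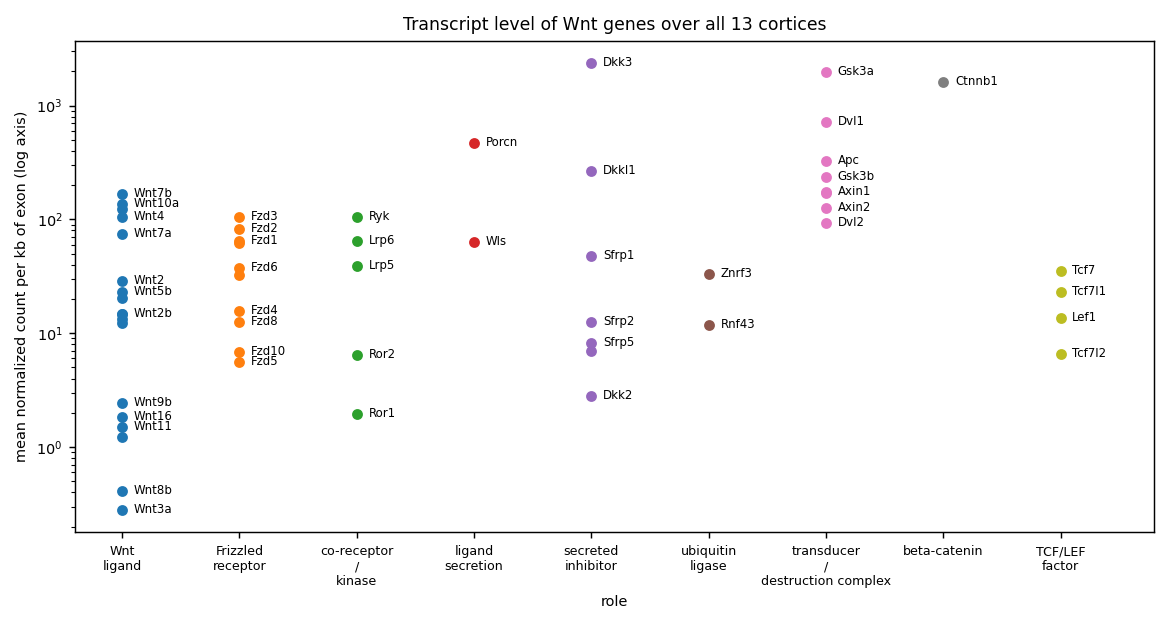
Mean normalized count per kilobase of exon (log axis) of each of the 57 Wnt genes by role, averaged over all 13 mice; each point is 1 gene and names are drawn where there is room. Dkk3 at 2362, Gsk3a at 1964 and Ctnnb1 at 1618 stand at the top, and the Wnt ligands reach from 0.28 for Wnt3a to 168 for Wnt7b.

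Few members passed the test in any comparison, and their share at an adjusted p under 0.05 was near that of all genes. A gene counts as changed where the authors' adjusted p is under 0.05. In Grn+/- against wild type, 3 of the 47 Wnt genes listed passed in the authors' deposited table, which is 6.38%, where 6.80% of all 13482 genes did. Of these 1 was higher and 2 were lower, beside 2.29% and 4.51% of all genes. In Grn-/-; GRNtg against wild type, 3 of 53 passed in the authors' deposited table, or 5.66%, where 4.87% of all 14961 genes did. Here too 1 was higher and 2 were lower, beside 1.81% and 3.05% of all genes. Between the mutant groups 0 of 57 passed, where 0.467% of all 17562 genes did. The authors' Wald test gave an unadjusted p under 0.05 to 5, 6 and 4 members in the 3 comparisons in the authors' deposited tables (10.6%, 11.3% and 7.02%), beside 20.2%, 20.5% and 8.99% of all genes. The 10 members that are not in the first table had mean normalized counts of at most 22.4 in the authors' deposited tables, under that table's lowest listed value of 24.7.

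The median log2 fold change of the members was -0.01 in Grn+/- against wild type, 0.01 in Grn-/-; GRNtg against wild type and 0.01 between the mutant groups. All genes had medians of 0.01, 0.01 and 0.00. By sign, 17 members were above 0 and 30 below in Grn+/- against wild type (36.2% above, beside 52.4% of all genes), and 29 above and 24 below in Grn-/-; GRNtg against wild type. The median SE of the members was 0.122, 0.118 and 0.114 in the 3 comparisons, beside 0.094, 0.098 and 0.094 for all genes. Shares of members and of all genes that passed are therefore not compared at like precision. At the median SE of the members, a gene needed a log2 fold change of at least 0.36 in either comparison with wild type, and 0.42 between the mutant groups, to pass. Over single members this limit ran from 0.12 to 0.40 in Grn+/- against wild type, from 0.13 to 0.42 in Grn-/-; GRNtg against wild type, and from 0.12 to 0.51 between the mutant groups. The low end between the mutant groups belongs to Wnt8b, a nearly absent gene with a mean normalized count of 1.43 and an SE of 0.033. It does not show what an abundant member would need there.

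**Figure D2:**
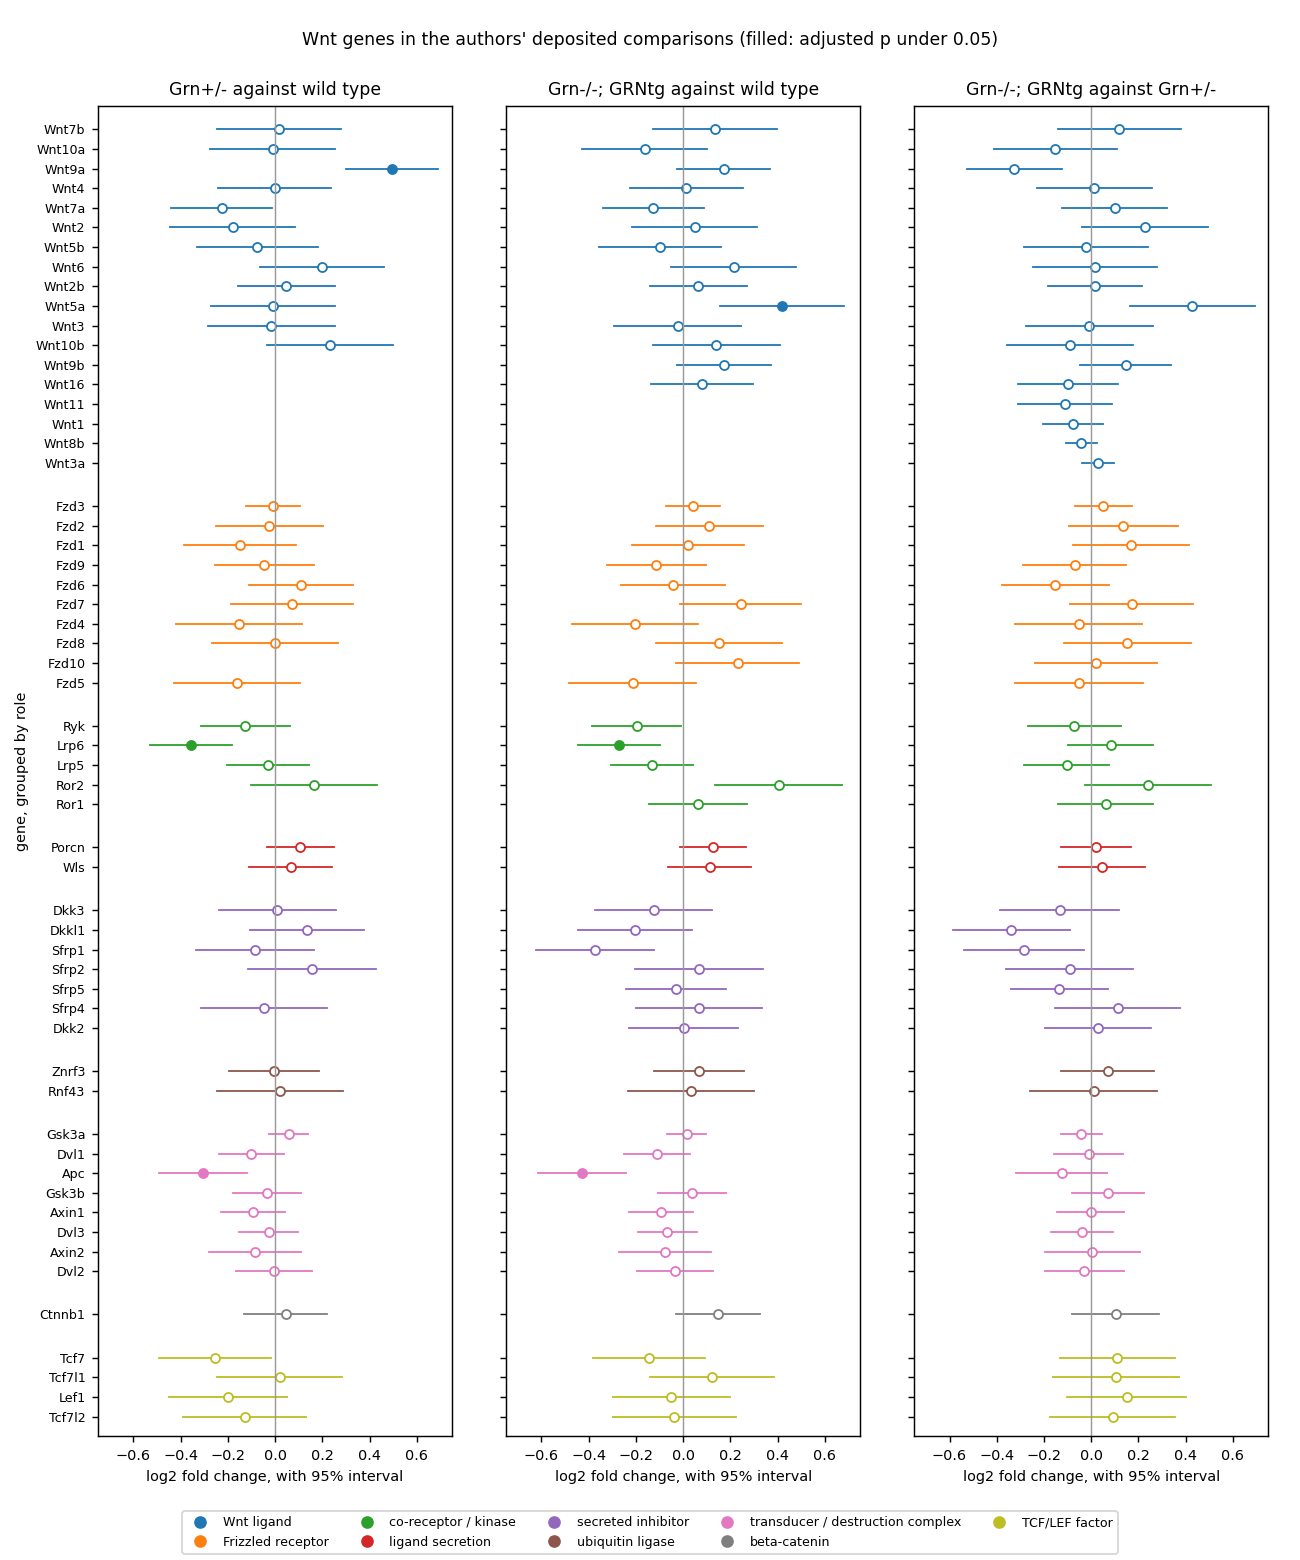
Log2 fold change of each Wnt gene in the 3 deposited comparisons (x axis), with the 95% interval as a bar; genes are grouped and coloured by role and sorted by level within a role, filled points have an adjusted p under 0.05, and a gene without a point is not in that table. Filled points are Wnt9a, Lrp6 and Apc in Grn+/- and Wnt5a, Lrp6 and Apc in Grn-/-; GRNtg against wild type, and none between the mutant groups.

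Among the ligands, Wnt9a was higher in Grn+/- and Wnt5a in Grn-/-; GRNtg. Wnt9a (chromosome 11, 59306928 to 59333552, plus strand, GRCm38), a ligand known from joint formation, rose by 0.50 ± 0.099 on the log2 scale in Grn+/- against wild type, with an adjusted p of 0.00013, in the authors' deposited table. That is 141% of the wild-type level, with a 95% interval of 0.30 to 0.69 on the log2 scale. In Grn-/-; GRNtg against wild type it was at 0.17 ± 0.0999 with an adjusted p of 0.32, and against Grn+/- at -0.33 ± 0.103 with an adjusted p of 0.14, in the authors' deposited tables. The direct comparison, with an interval of -0.53 to -0.12, did not pass, so Wnt9a is not shown to differ between the mutant groups.

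The sequence before the Wnt9a start is shown because it is the called ligand gene with a promoter entry in RefSeq on GRCm38.p6. Axin2, the pathway's feedback gene, and Fzd7, which holds a TCF/LEF core match, are printed beside it. Each line gives the 250 bases before the start on the plus strand, with matches to the TCF/LEF core in capitals, and lies at chr11:59306680-59306929, chr11:108920099-108920348 and chr1:59481897-59482146.
Wnt9a: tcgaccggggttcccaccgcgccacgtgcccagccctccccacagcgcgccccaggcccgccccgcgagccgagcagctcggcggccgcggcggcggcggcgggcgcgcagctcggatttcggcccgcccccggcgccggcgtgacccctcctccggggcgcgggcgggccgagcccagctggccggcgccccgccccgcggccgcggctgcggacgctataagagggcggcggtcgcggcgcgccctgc
Axin2: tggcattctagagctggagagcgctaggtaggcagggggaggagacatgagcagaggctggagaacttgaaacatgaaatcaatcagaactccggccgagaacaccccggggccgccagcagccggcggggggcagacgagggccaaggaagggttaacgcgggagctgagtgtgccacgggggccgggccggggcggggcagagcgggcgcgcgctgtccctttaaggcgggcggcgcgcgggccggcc
Fzd7: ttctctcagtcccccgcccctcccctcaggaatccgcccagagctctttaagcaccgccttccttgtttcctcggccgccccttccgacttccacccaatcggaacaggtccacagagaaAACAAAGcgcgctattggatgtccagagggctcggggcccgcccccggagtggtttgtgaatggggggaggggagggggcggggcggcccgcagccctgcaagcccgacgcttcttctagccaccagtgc
The motifs searched were CTTTGAA or CTTTGAT or CTTTGTA or CTTTGTT on both strands. The Wnt9a window held 0 matches and 48 CG pairs at 84.4% G and C, the Axin2 window 0 matches and 24 CG pairs, and the Fzd7 window 1 match and 17 CG pairs. Sequence outside these windows was not searched, so 0 matches does not mean that a gene has no such site. Of 41 Wnt genes with an entry, 6 (14.6%) held a match in at least 1 window, as did 6 of their 51 windows (11.8%), beside 14.8% of all 32851 windows of the same length. Fzd7 was at 0.07 ± 0.131 in Grn+/- and 0.24 ± 0.131 in Grn-/-; GRNtg against wild type in the authors' deposited tables, and did not pass.

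Wnt5a (chromosome 14, 28504750 to 28527448, plus strand, GRCm38) rose by 0.42 ± 0.134 on the log2 scale in Grn-/-; GRNtg against wild type, with an adjusted p of 0.042, in the authors' deposited table. That is 134% of the wild-type level as deposited, with an interval of 0.16 to 0.68 on the log2 scale. Its SE of 0.134 is close to the highest in the table, 0.138, so this size is among those a prior could have reduced most. In Grn+/- it was at -0.01 ± 0.134 (adjusted p of 0.98), and Grn-/-; GRNtg against Grn+/- gave 0.43 ± 0.135 (adjusted p of 0.14), in the authors' deposited tables. Of its exon bases, 4.58% overlap the antisense gene Gm2670, and the strand setting of the counting is not given, so reads there cannot be assigned with certainty.

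The other ligands did not pass in any of the 3 tables. Wnt7a, an endothelial signal, was at -0.23 ± 0.110 (adjusted p of 0.21) in Grn+/- and at -0.13 ± 0.109 (adjusted p of 0.54) in Grn-/-; GRNtg against wild type in the authors' deposited tables. Wnt7b, the ligand with the highest level, was at 0.02 ± 0.135 and 0.14 ± 0.135 there, in the authors' deposited tables. Ligands other than Wnt9a lay between -0.23 and 0.23 in Grn+/- against wild type, and those other than Wnt5a between -0.16 and 0.21 in Grn-/-; GRNtg.

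The Frizzled receptors did not pass in any comparison. They lay between -0.16 and 0.11 in Grn+/- and between -0.21 and 0.24 in Grn-/-; GRNtg against wild type in the authors' deposited tables. Fzd2, named here for the earlier link to progranulin and not by the rule for named genes, was at -0.02 ± 0.115 in Grn+/- (adjusted p of 0.94, interval -0.25 to 0.20) in the authors' deposited table. The Grn-/-; GRNtg value was 0.11 ± 0.115 (adjusted p of 0.62, interval -0.11 to 0.34) in the authors' deposited table. Fzd2 lies 0.173 Mb from Grn on chromosome 11 (102604396 to 102608058, plus strand, GRCm38), and it is the Wnt gene closest to Grn. Fzd3, the receptor with the highest level, was measured most closely, at -0.01 ± 0.059 and 0.04 ± 0.059 against wild type in the authors' deposited tables.

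Of the co-receptors, Lrp6 was lower in both mutant groups. Lrp6 (chromosome 6, 134446476 to 134566965, minus strand, GRCm38), the canonical co-receptor that Dickkopf proteins block, fell by 0.35 (SE 0.089, adjusted p of 0.0036) in Grn+/- in the authors' deposited table. The Grn-/-; GRNtg mice also differed from wild type, where Lrp6 fell by 0.27 (SE 0.089, adjusted p of 0.046) in the authors' deposited table. These are 78.2% and 82.8% of the wild-type level, and both comparisons use the same wild-type mice. Its paralog Lrp5 was at -0.03 ± 0.088 and -0.13 ± 0.088 against wild type in the authors' deposited tables and did not pass.

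Ror2, a receptor tyrosine kinase for Wnt5a, was at 0.40 ± 0.137 in Grn-/-; GRNtg against wild type, just short of the threshold with an adjusted p of 0.058, in the authors' deposited table. Its mean normalized count of 27.1 across the authors' deposited tables was the lowest of the 47 Wnt genes listed in all 3 tables. In Grn+/- it was at 0.16 ± 0.137 (adjusted p of 0.54) in the authors' deposited table. Ryk, an atypical Wnt receptor, was at -0.13 ± 0.097 in Grn+/- and -0.20 ± 0.097 in Grn-/-; GRNtg (adjusted p of 0.22) against wild type in the authors' deposited tables.

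Secretion genes, secreted inhibitors and the ubiquitin ligases had 0 members past the threshold in the 3 comparisons. Sfrp1, a secreted Frizzled decoy, was at -0.37 ± 0.128 in Grn-/-; GRNtg against wild type with an adjusted p of 0.061, and at -0.09 ± 0.127 in Grn+/- with an adjusted p of 0.77, in the authors' deposited tables. Dkkl1, a Dickkopf-like gene, was at 0.13 ± 0.123 in Grn+/- and at -0.21 ± 0.123 in Grn-/-; GRNtg against wild type in the authors' deposited tables. Dkk3 was at 0.01 ± 0.127 and -0.12 ± 0.127 in the same comparisons in the authors' deposited tables. Porcn was at 0.11 ± 0.072 and 0.13 ± 0.072, and Znrf3 at -0.0029 ± 0.097 and 0.07 ± 0.097, in the authors' deposited tables.

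In the destruction complex, Apc was lower in both mutant groups. Apc (chromosome 18, 34220924 to 34322552, plus strand, GRCm38), which also binds microtubules in neurons, fell by 0.43 (SE 0.095, adjusted p of 0.0011) in Grn-/-; GRNtg against wild type in the authors' deposited table. In Grn+/- it fell by 0.30 (SE 0.095, adjusted p of 0.029) in the authors' deposited table. These are 74.2% and 81.0% of the wild-type level, measured at a mean normalized count of 5296 across the authors' deposited tables. The other 7 genes of the role did not pass: Axin2, the feedback gene used as a readout of canonical signalling, was at -0.08 ± 0.0996 in both comparisons with wild type in the authors' deposited tables. Its 95% intervals were -0.28 to 0.11 and -0.27 to 0.12. Gsk3a, the member with the smallest SE against wild type, was at 0.06 ± 0.042 and 0.01 ± 0.042 in the authors' deposited tables. By sign, 1 of 8 genes of this role was above 0 in Grn+/- against wild type and 2 of 8 in Grn-/-; GRNtg, beside 52.4% and 51.3% of all genes. After Apc the lowest was Dvl1, at -0.10 ± 0.071 and -0.11 ± 0.071 in the authors' deposited tables. With 1 of the 8 genes passing, a fall of the whole role is not shown.

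Beta-catenin and the TCF/LEF factors did not pass. By the authors' deposited tables, Ctnnb1 was at 0.04 ± 0.090 in Grn+/- against wild type (adjusted p of 0.84). Grn-/-; GRNtg mice gave 0.15 ± 0.090 (adjusted p of 0.35) in the authors' deposited table. Of its exon bases, 14.6% overlap Ulk4 on the opposite strand. Other members also overlap genes on the opposite strand: Gsk3a by 28.3% (9130221H12Rik), Dvl2 by 18.3% (Acadvl) and Fzd5 by 17.8% (Gm38058). For Sfrp2 it is 16.1% (Gm26771) and for Lef1 13.7% (Gm43352). Reads there cannot be assigned with certainty, which limits both the levels and the fold changes of these genes. Tcf7, known best from T cells, was at -0.25 ± 0.121 in Grn+/- (adjusted p of 0.20) against -0.14 ± 0.1205 in Grn-/-; GRNtg (adjusted p of 0.52) in the authors' deposited tables. Lef1, expressed in brain endothelium and thalamus, was at -0.20 ± 0.127 and -0.05 ± 0.126 there, in the authors' deposited tables.

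**Figure D3:**
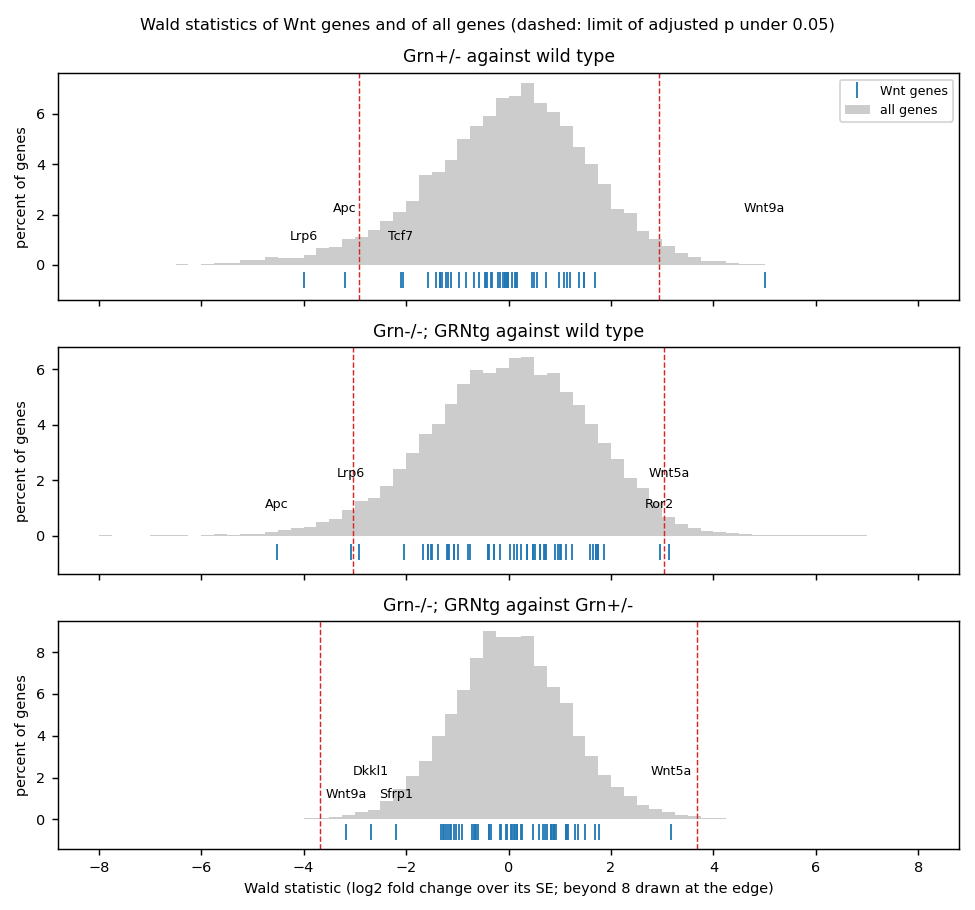
Distribution of the Wald statistic (log2 fold change over its SE) over all genes of each deposited table (grey bars, percent of genes) with the Wnt genes as blue ticks and the 4 Wnt genes with the smallest p named; dashed lines mark the smallest absolute statistic that passed. In Grn+/- the ticks of Lrp6, Apc and Wnt9a lie outside the lines, in Grn-/-; GRNtg against wild type those of Apc, Lrp6 and Wnt5a, and in the lowest panel no tick does.

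Apc and Lrp6 have long transcripts, and transcript length moved with the fold changes of all genes. Their exons cover 16.1 and 13.7 kb, which puts both in the longest of 5 bins of equal gene number. In that bin 13.5% of genes were lower in Grn+/- against wild type, beside 1.04% in the shortest bin, with medians of -0.08 and 0.06 on the log2 scale. For Grn-/-; GRNtg the shares were 6.55% and 1.52%, with medians of -0.05 and 0.04. With the median of its bin subtracted, Apc in Grn+/- came to -0.23 with an adjusted p of 0.15 and no longer passed, while in Grn-/-; GRNtg it came to -0.38 with an adjusted p of 0.0067. Lrp6 came to -0.28 with an adjusted p of 0.042 in Grn+/- and to -0.22 with an adjusted p of 0.13 in Grn-/-; GRNtg. Wnt9a, at 3.33 kb, came to 0.46 with an adjusted p of 0.00075, and Wnt5a, at 7.82 kb, to 0.47 with an adjusted p of 0.019.

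**Figure D4:**
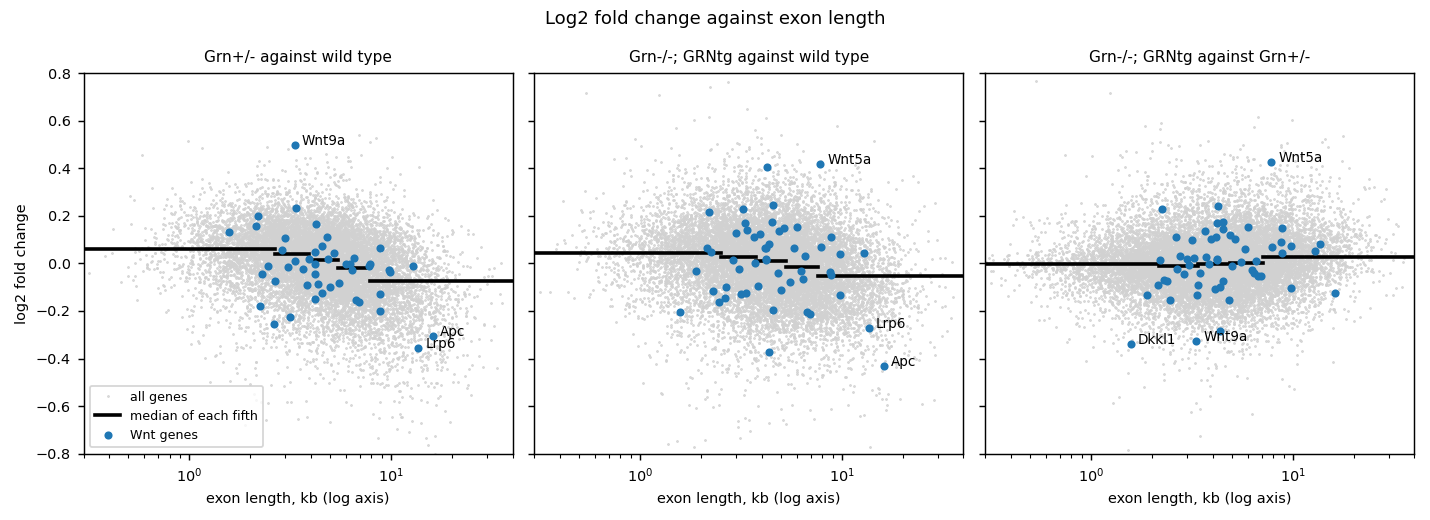
Log2 fold change (y axis) against exon length in kilobases (log axis) for all genes (grey) and the Wnt genes (blue) in the 3 comparisons; black lines are the median of each of 5 bins of exon length, and genes beyond the axes are not drawn. Apc and Lrp6 lie at the long end, where the median of all genes was -0.08 in Grn+/- and -0.05 in Grn-/-; GRNtg against wild type.

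A second limit applies to all 6 calls. The Wald statistics of all genes had a robust spread of 1.49 in Grn+/- and 1.56 in Grn-/-; GRNtg against wild type, where 1 is the spread of the theoretical null. Divided by that spread, 0 Wnt genes passed in either comparison, with an adjusted p of 0.18 for Wnt9a, 0.42 for Lrp6 and 0.66 for Apc in Grn+/-, and 0.69 for Apc and 0.99 for Lrp6 and Wnt5a in Grn-/-; GRNtg. All genes together then gave 3 and 5 calls.

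Between the mutant groups, the 5 members with the smallest adjusted p were Wnt5a, Wnt9a, Dkkl1, Sfrp1 and Ror2, and none passed. Dkkl1 was at -0.34 ± 0.126 (adjusted p of 0.28) and Sfrp1 at -0.29 ± 0.130 (adjusted p of 0.47) in Grn-/-; GRNtg against Grn+/- in the authors' deposited table. Ror2 was at 0.24 ± 0.137 (adjusted p of 0.63) in the authors' deposited table. Apc and Lrp6, lower in both groups against wild type, were at -0.13 ± 0.099 and 0.08 ± 0.093 in the authors' deposited table. All 4 TCF/LEF genes were above 0, between 0.09 and 0.15, with 0 passing, where 50.8% of all genes were above 0.

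Other genes of the pathway were taken from 4 lists of 88 genes that hold no member of the rule: extracellular modulators, destruction complex and beta-catenin cofactors, planar cell polarity and non-canonical genes, and beta-catenin targets. In Grn+/- against wild type 2 of 75 were higher and 3 lower, and in Grn-/-; GRNtg 2 of 80 were higher and 1 lower, in the authors' deposited tables. The second split depended on the setting: it was 1 higher and 3 lower with the median of all genes subtracted, where Gpc4 no longer passed, and 1 higher and 3 lower among genes with a mean normalized count of at least 100, a limit that Gpc3 does not reach. Ctnnd1 and Tnfrsf19 were lower in both, and both are named here after their values were seen. Between the mutant groups 0 of 85 passed the authors' Wald test in the authors' deposited table. These shares are again read beside 6.80%, 4.87% and 0.467% of all genes. An unadjusted p under 0.05 was given to 13 of 75, 18 of 80 and 8 of 85 in the authors' deposited tables, beside 20.2%, 20.5% and 8.99% of all genes. The medians of the 75, 80 and 85 genes listed were -0.03, -0.03 and 0.01 on the log2 scale.

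In Grn+/- against wild type, Dact2, which binds Dishevelled, rose by 0.43 ± 0.105 (adjusted p of 0.0023) in the authors' deposited table. The polarity genes Celsr3, an atypical cadherin, and Scrib, a scaffold, fell by 0.27 (SE 0.072) and 0.26 (SE 0.081) in the authors' deposited table. Tnks, the tankyrase that marks Axin for degradation, fell by 0.43 (SE 0.126, adjusted p of 0.017) in the authors' deposited table. Among beta-catenin targets 1 of 15 passed in Grn+/-: Id2, an inhibitor of helix-loop-helix factors, rose by 0.29 ± 0.093 (adjusted p of 0.032) in the authors' deposited table. With the median of its exon length bin subtracted, Dact2 came to 0.40 with an adjusted p of 0.0090. Celsr3, Scrib, Tnks and Id2 no longer passed under that setting.

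Among modulators in Grn-/-; GRNtg against wild type, the glypicans Gpc3 (0.46 ± 0.137, adjusted p of 0.024) and Gpc4 (0.42 ± 0.137, adjusted p of 0.049), proteoglycans that bind Wnts at the cell surface, rose in the authors' deposited table. Nkd1, a feedback inhibitor that binds Dishevelled and is itself a beta-catenin target, fell by 0.30 (SE 0.093, adjusted p of 0.037) in the authors' deposited table. With the median of the exon length bin subtracted, Gpc3 and Nkd1 still passed and Gpc4 did not. The target Apcdd1, a Wnt inhibitor at the membrane, was at 0.21 ± 0.0999 in Grn+/- and 0.19 ± 0.0999 in Grn-/-; GRNtg in the authors' deposited tables and did not pass.

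Some lists of markers of other cells or tissue lay wholly above or wholly below 0 in the comparison in which Wnt5a, Gpc3 and Gpc4 were higher. Other lists were mixed there: 5 of 8 hippocampal, 4 of 8 oligodendrocyte precursor, 2 of 8 mural cell and 2 of 8 thalamic markers were above 0. Leptomeningeal and fibroblast markers were above 0 in 10 of 10 genes in Grn-/-; GRNtg against wild type, with a median of 0.21, in the authors' deposited table. Of these 1 passed, Mgp, with a log2 fold change of 0.44 ± 0.136 there, where 1.81% of all genes were higher. In Grn+/- 9 of 9 were above 0, with a median of 0.11 and 0 passing, in the authors' deposited table. The list sums to a mean normalized count of 2438 across the authors' deposited tables, with Igf2 at 1050 its most abundant gene and Lum at 21.4 its least. Striatal markers were above 0 in 10 of 10 genes in the same comparison, with a median of 0.15, and in 10 of 10 between the mutant groups, with a median of 0.20, in the authors' deposited tables. In Grn+/- against wild type 2 of 10 were above 0, with a median of -0.06, and none of the 10 passed in any comparison in the authors' deposited tables. The striatal list sums to 7710, from Gpr6 at 36.8 to Ppp1r1b at 2614. Between the mutant groups 5 of 8 hippocampal markers were above 0, with a median of 0.19. Of these 1 was higher and passed, where 0.319% of all genes did. In Grn+/- against wild type 0 of 5 hippocampal markers were above 0, with a median of -0.28 and 0 passing, in the authors' deposited tables. Oligodendrocyte markers were below 0 in 8 of 8 genes in both comparisons with wild type, with medians of -0.14 in Grn+/- and -0.22 in Grn-/-; GRNtg and 0 passing, in the authors' deposited tables. The part of these lists in the values of Wnt5a, Ror2 and the glypicans was not tested.

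Genes of the blood-brain barrier branch were measured beside endothelial markers. In Grn+/- against wild type 9 of 11 endothelial markers were below 0, with a median of -0.15 and 0 passing. Between the mutant groups 9 of 11 were below 0, with a median of -0.12 and 0 passing. In Grn-/-; GRNtg against wild type 9 of 11 were also below 0, with a median of -0.27, in the authors' deposited table. Flt1, Kdr, Slco1c1 and Eng passed as lower there, beside 3.05% of all genes. The endothelial Wnt receptor Fzd4 was at -0.20 ± 0.136, its partner Tspan12 at -0.14 ± 0.085 and their ligand Ndp at -0.26 ± 0.123 there, in the authors' deposited table, and none of them passed. Reck and Adgra2, which make up the Wnt7 co-receptor, were at -0.07 ± 0.106 and -0.14 ± 0.106 in the authors' deposited table. These 5 genes were picked by known function. The barrier ligands differed in sign in Grn-/-; GRNtg against wild type, with Wnt7a at -0.13 ± 0.109 and Wnt7b at 0.14 ± 0.135. Of the 21 extracellular modulators listed there, 10 were above 0 and 11 below. In Grn+/- against wild type Fzd4 was at -0.15 ± 0.136 in the authors' deposited table and did not pass. Whether the endothelial markers account for any of these values was not tested.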

How the data were processed

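Cortex RNA-seq of 13 mice was used as the authors' comparison tables, which hold no values per mouse. The submitters' processing notes name DESeq2 1.34.0, R 4.1.2 and the mm10 build, with no role for each. Aligner, counter, annotation, strand setting and any fold change prior have no statement in the sources used here. Per the file headers, the authors deposited a mean normalized count (a signal averaged over libraries), a log2 fold change with its SE, a Wald score, and a p-value with its Benjamini-Hochberg adjusted p-value. Division and re-adjustment of the deposited columns returned the deposited score and adjusted p-value in every row. Depth per mouse is not known. The 13482, 14961 and 17562 genes of the 3 tables were used, and 2 rows that name no gene were left out. The SE had a ceiling of 0.138, and fold changes may be drawn towards 0.

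Intervals are the log2 fold change ± the normal 95% range of the deposited SE, and percent of wild type is computed from the log2 fold change. P-values set each log2 fold change against its deposited SE, and the spread between these mice enters only through that SE. GENCODE M21 (GRCm38, which UCSC calls mm10) gave exon lengths and positions, and 96.5%, 96.4% and 96.2% of genes had a length. It may differ from the annotation used for counting. Promoter windows are from RefSeq on GRCm38.p6. Python 3.11.15, numpy 2.4.6, pandas 2.3.3, scipy 1.17.1 and matplotlib 3.10.9 were used, and the adjustment was tested on simulated data. Genes named by rule were those called in any comparison, the 5 members with the smallest adjusted p where fewer passed, the highest member of each role, and called genes of the other lists (at most 8 a list). Other genes with printed fold changes were picked by hand outside this rule. They are the members Fzd2, Fzd4, Fzd7, Lrp5, Axin2, Lef1, Wnt3 and Wnt9b, and the list genes Apcdd1, Tspan12, Ndp, Reck and Adgra2. The members, lists and tests were chosen with earlier results of these data known. For each count 8 alternatives were tried, and 1 more, the centring by exon length, was chosen after seeing the data.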

Additional observations from a re-analysis of the deposited data

How the results depend on the processing

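No paired analysis was possible because the files hold comparisons and no values per mouse, and no mouse could be left out for the same reason. For the 4 counts of called genes above 0, 21 of 32 alternatives other than the authors' own table of significant genes stayed within 1.5 times the value reported. For Wnt genes in Grn-/-; GRNtg against wild type, 1 passed at an adjusted p under 0.01 and 5 at an adjusted p under 0.10. With the Wald statistic divided by its robust spread, 0 Wnt genes and 0 other pathway genes passed in Grn+/- and in Grn-/-; GRNtg against wild type. For the other pathway genes in Grn+/-, 2 passed at an adjusted p under 0.01, 2 with an absolute log2 fold change of at least 0.3, and 1 with the median of the exon length bin subtracted. In Grn-/-; GRNtg against wild type 0 passed at an adjusted p under 0.01 and 7 under 0.10. Between the mutant groups 0 Wnt genes passed under each of the 9 alternatives, a count too low to show stability. Centring by exon length turned the sign of uncalled members near 0: Dkk3 to -0.029, Fzd3 to 0.066, Wnt5a to 0.0087 and Znrf3 to 0.073 in Grn+/-, and Gsk3a to -0.011 in Grn-/-; GRNtg against wild type. Subtracting the median of all genes changed no call and no sign among the named members, but turned the split of the other pathway genes in Grn-/-; GRNtg against wild type from 2 higher and 1 lower to 1 higher and 3 lower. The deposited SE limits what could pass, and depth per mouse is unknown.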

Other observations

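Some abundant Wnt genes had larger standard errors than genes of like level. For Dkk3, with a mean normalized count of 7935 across the authors' deposited tables, the SE in Grn+/- against wild type was 0.127, where the median of 806 genes within 2-fold of its count was 0.0693. Wnt7b had an SE of 0.135 beside a median of 0.0783, and Wnt10a an SE of 0.135 beside 0.0954. Of 47 members, 13 stood at or above the 80th percentile of SE among genes of like level. Gsk3a stood at the 2.34th percentile in Grn+/- against wild type, with an SE of 0.0423 beside 0.0696.

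Chromosome 11, which carries Grn, also carries 10 of the 57 Wnt genes, and 4 of them lie within 7 Mb of Grn. Besides Fzd2 these are Wnt9b and Wnt3, at 1.30 and 1.36 Mb, and Axin2 at 6.502 Mb. Wnt3 was at -0.02 ± 0.137 in both comparisons with wild type, and Wnt9b at 0.17 ± 0.102 in Grn-/-; GRNtg against wild type, in the authors' deposited tables. None of the 4 passed in any comparison, and Wnt9a, which rose in Grn+/-, lies 43.1 Mb from Grn.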
